A study of Mus musculus with 7 samples.

Results

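Chromatin accessibility was described at 4 genes for prostaglandin receptors, Ptger2, Ptger4, Ptgir and Ptgdr2, and at Hpgds, the gene for a prostaglandin D synthase, in CD4+ T cells that responded to the helminth Nippostrongylus brasiliensis. The regions were chosen by position alone: every region of the deposited ATAC-seq table that overlapped the body of one of the 5 genes or the 10 kb on either side of it. This gave 42 of the 113820 regions in the table, with 14 at Ptger2, 11 at Ptger4, 8 at Hpgds, 6 at Ptgdr2 and 3 at Ptgir. ATAC-seq counts the insertions of a transposase, which cuts open chromatin more often than closed chromatin. It measures neither RNA nor protein.

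All mice were C57BL/6 animals infected with 500 L3 larvae, and all cells were taken 8 days later, so that no library came from an uninfected mouse. LN IL-4+ cells (n = 2 libraries) and lung IL-4+ cells (n = 3) were GFP+ CD4+ T cells of the mediastinal lymph node or the lung of IL-4-4get mice, in which GFP reports transcription of Il4. Lung IFNγ+ cells (n = 2) were YFP+ CD4+ T cells of the lung of IFN-gamma-Great mice, in which YFP reports Ifng. Each library was made from 50000 cells. The lung populations differed in reporter line as well as in cytokine, and these cannot be told apart. Per the paper's methods, lungs were digested with enzymes and lymph nodes were dissociated mechanically. Tissue and preparation therefore cannot be told apart in the contrasts with LN IL-4+ cells. Lung IFNγ+ over LN IL-4+ differed in reporter line and cytokine as well. The labels do not say whether lymph node and lung IL-4+ libraries shared animals, so p-values measure the spread between these libraries.

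Prostaglandins are lipid mediators made from arachidonic acid, which cyclooxygenases convert to a common precursor that terminal synthases turn into prostaglandin D, prostaglandin E, prostacyclin and others. Ptger2 and Ptger4 encode the EP2 and EP4 receptors for prostaglandin E and Ptgir encodes the IP receptor for prostacyclin, and all of these raise cAMP through the G protein Gs. Ptgdr2 encodes CRTH2, a Gi-coupled receptor for prostaglandin D that is a known surface marker of Th2 cells, and Hpgds makes prostaglandin D in mast cells and some Th2 cells.

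The sequences of the 4 regions with the smallest p-values for a difference between the populations are given first, as the central 300 bases of a region or, for the region at the start of Hpgds, the 300 bases before the gene's start, a window that runs past the region's upstream end at base 65145102. All are from GRCm38 and read 5′ to 3′ on the strand of the gene, and capitals mark a match to a searched motif.
Ptgir, region past the start, chr7:16907881-16908180, plus strand: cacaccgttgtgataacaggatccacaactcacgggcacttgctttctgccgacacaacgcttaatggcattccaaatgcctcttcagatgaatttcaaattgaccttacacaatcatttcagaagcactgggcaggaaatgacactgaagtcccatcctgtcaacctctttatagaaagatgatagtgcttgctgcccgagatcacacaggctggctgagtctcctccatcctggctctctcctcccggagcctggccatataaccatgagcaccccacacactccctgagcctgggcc
Hpgds, upstream of the start, chr6:65144909-65145208, minus strand: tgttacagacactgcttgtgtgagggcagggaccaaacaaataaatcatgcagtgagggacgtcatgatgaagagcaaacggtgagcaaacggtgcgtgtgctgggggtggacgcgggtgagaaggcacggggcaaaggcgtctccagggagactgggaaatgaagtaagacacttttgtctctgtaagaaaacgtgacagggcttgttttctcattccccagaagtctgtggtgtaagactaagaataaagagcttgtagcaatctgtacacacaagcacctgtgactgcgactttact
Hpgds, intron region, chr6:65140705-65141004, minus strand: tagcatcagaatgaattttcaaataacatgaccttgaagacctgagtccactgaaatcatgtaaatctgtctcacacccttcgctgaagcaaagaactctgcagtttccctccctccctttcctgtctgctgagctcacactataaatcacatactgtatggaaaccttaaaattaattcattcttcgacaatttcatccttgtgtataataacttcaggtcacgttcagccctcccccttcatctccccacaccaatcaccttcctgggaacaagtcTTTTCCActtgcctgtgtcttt
Ptgdr2, region upstream of the start, chr19:10934727-10935026, plus strand: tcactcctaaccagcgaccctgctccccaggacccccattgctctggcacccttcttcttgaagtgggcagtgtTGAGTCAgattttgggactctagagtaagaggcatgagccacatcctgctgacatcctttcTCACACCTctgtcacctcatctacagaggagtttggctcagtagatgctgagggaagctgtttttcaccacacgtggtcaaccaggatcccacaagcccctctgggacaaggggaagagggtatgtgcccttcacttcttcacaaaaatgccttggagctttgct
The capitals in the Hpgds intron region are an NFAT motif from base 279. Those in the Ptgdr2 upstream region are a bZIP motif from base 75 and a T-box motif from base 136. No searched motif occurred in the other windows.

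The deposited values were log2 densities, that is log2 normalized insertions per kb of region. Antilogs multiplied by region length gave normalized insertions, which summed to between 980681 and 980715 per library. Depth, rebuilt from ties in the values, was between 14005923 and 91681969 insertions per library. The libraries fell into separate classes by the spread of their rebuilt counts, with an interquartile range of 1.65 to 1.74 (log2) in 3 libraries (LN IL-4+ 1 and lung IL-4+ 2 and 3) and of 2.89 to 3.07 in the other 4, which included both lung IFNγ+ libraries. All 5 CD4+ T cell marker genes had regions, with mean locus densities of 7.6 to 13.8 insertions per kb. The Il4 locus summed to 149.3 ± 27.2 insertions (SD, n = 3) in lung IL-4+ and 47.0 ± 10.5 (SD, n = 2) in lung IFNγ+ cells, and the Ifng locus to 22.6 ± 7.36 and 71.6 ± 0.573.

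Summed accessibility differed most between the populations at Ptgir, where lung IL-4+ cells had the highest values, and at Hpgds, where they had the lowest, and least at Ptger2 and Ptger4. Normalized insertions were summed over all regions of a locus and compared by limma over 17021 protein-coding genes. At an adjusted p below 0.05, 0 of 5 loci were called in each contrast, where 1.08% of all loci were called for lung IL-4+ over LN IL-4+, 0.0529% for lung IL-4+ over lung IFNγ+ and 2.15% for lung IFNγ+ over LN IL-4+. At an unadjusted p below 0.05, 2, 2 and 1 of the 5 passed, beside 13.9%, 14.9% and 16.3% of all loci. The 3 contrasts share libraries, so their values are given side by side. Per length, Hpgds was the densest of the loci in LN IL-4+ cells at 17.8 ± 4.56 insertions per kb (SD, n = 2) and Ptger4 the densest in lung IL-4+ cells at 12.6 ± 1.61 (SD, n = 3). Against all genes, the mean density of the 5 loci stood between percentile 33.9 (Ptgir) and percentile 54.3 (Ptger4).

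**Figure D1:**
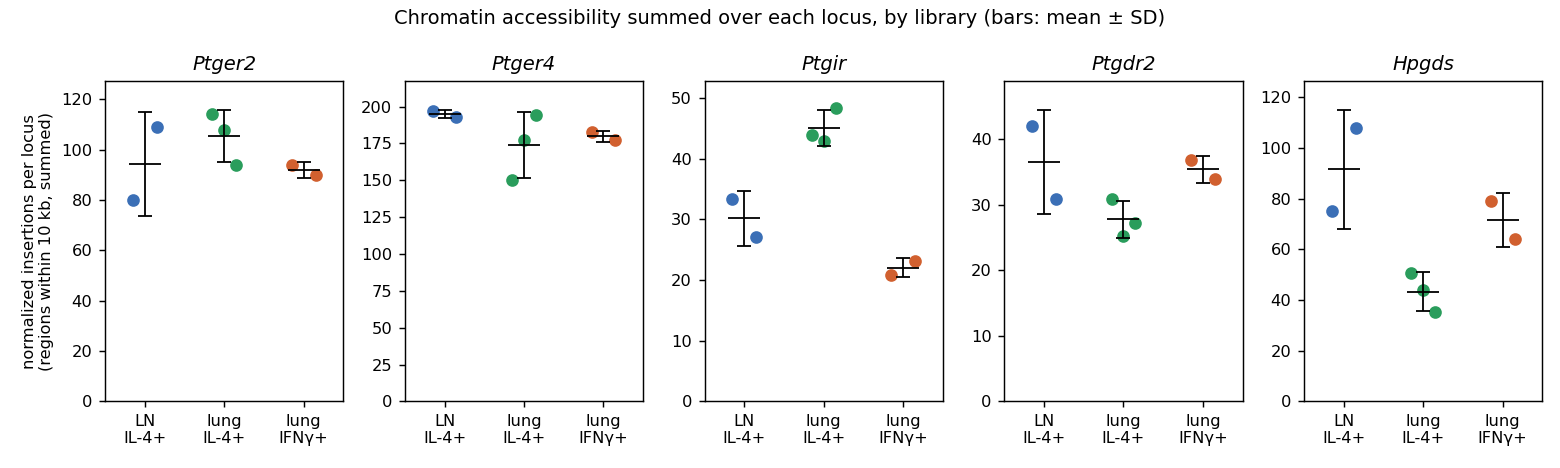
Normalized insertions summed over the regions within 10 kb of each gene (y axis, from 0) in each of the 7 libraries (points), with the mean and SD of each population (bars). The lung IL-4+ libraries were the 3 highest at Ptgir, from 42.9 to 48.4, and the 3 lowest at Hpgds, from 35.2 to 50.5.

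Of the single regions, 0 of 42 were called in any contrast by the study's rule, which asks for a fold change of 3 or more beside an adjusted p below 0.05 (limma over all regions). That rule called 1.74% of all regions for lung IL-4+ over LN IL-4+, 0.496% for lung IL-4+ over lung IFNγ+ and 3.03% for lung IFNγ+ over LN IL-4+. Without the minimum fold change, 1 region of Hpgds fell in lung IL-4+ compared with LN IL-4+ cells (2.93% of all regions passed, 1.05% in this direction) and 1 region of Ptgir rose in lung IL-4+ compared with lung IFNγ+ cells (0.664% passed, 0.151% in this direction), while 0 passed for lung IFNγ+ over LN IL-4+ (4.19%). At an unadjusted p below 0.05, the counts were 8 of 42 (19.0%, against 16.2% of all regions), 6 (14.3%, against 14.8%) and 4 (9.52%, against 18.5%). Libraries of the populations compared did not overlap at 14 of the 42 regions (33.3%, against 27.9% of all regions), 15 (35.7%, against 40.6%) and 21 (50.0%, against 53.7%). Voom on the rebuilt counts, with both thresholds, called 0, 0 and 2 of the 42, namely a region upstream of Ptgdr2 and one upstream of Ptger2 for lung IFNγ+ over LN IL-4+, where this fit called 1.63%, 0.959% and 5.18% of all regions. The median log2 difference of the 42 regions was -0.11, -0.08 and -0.03 in the 3 contrasts, beside -0.03, -0.01 and -0.03 over all regions.

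**Figure D2:**
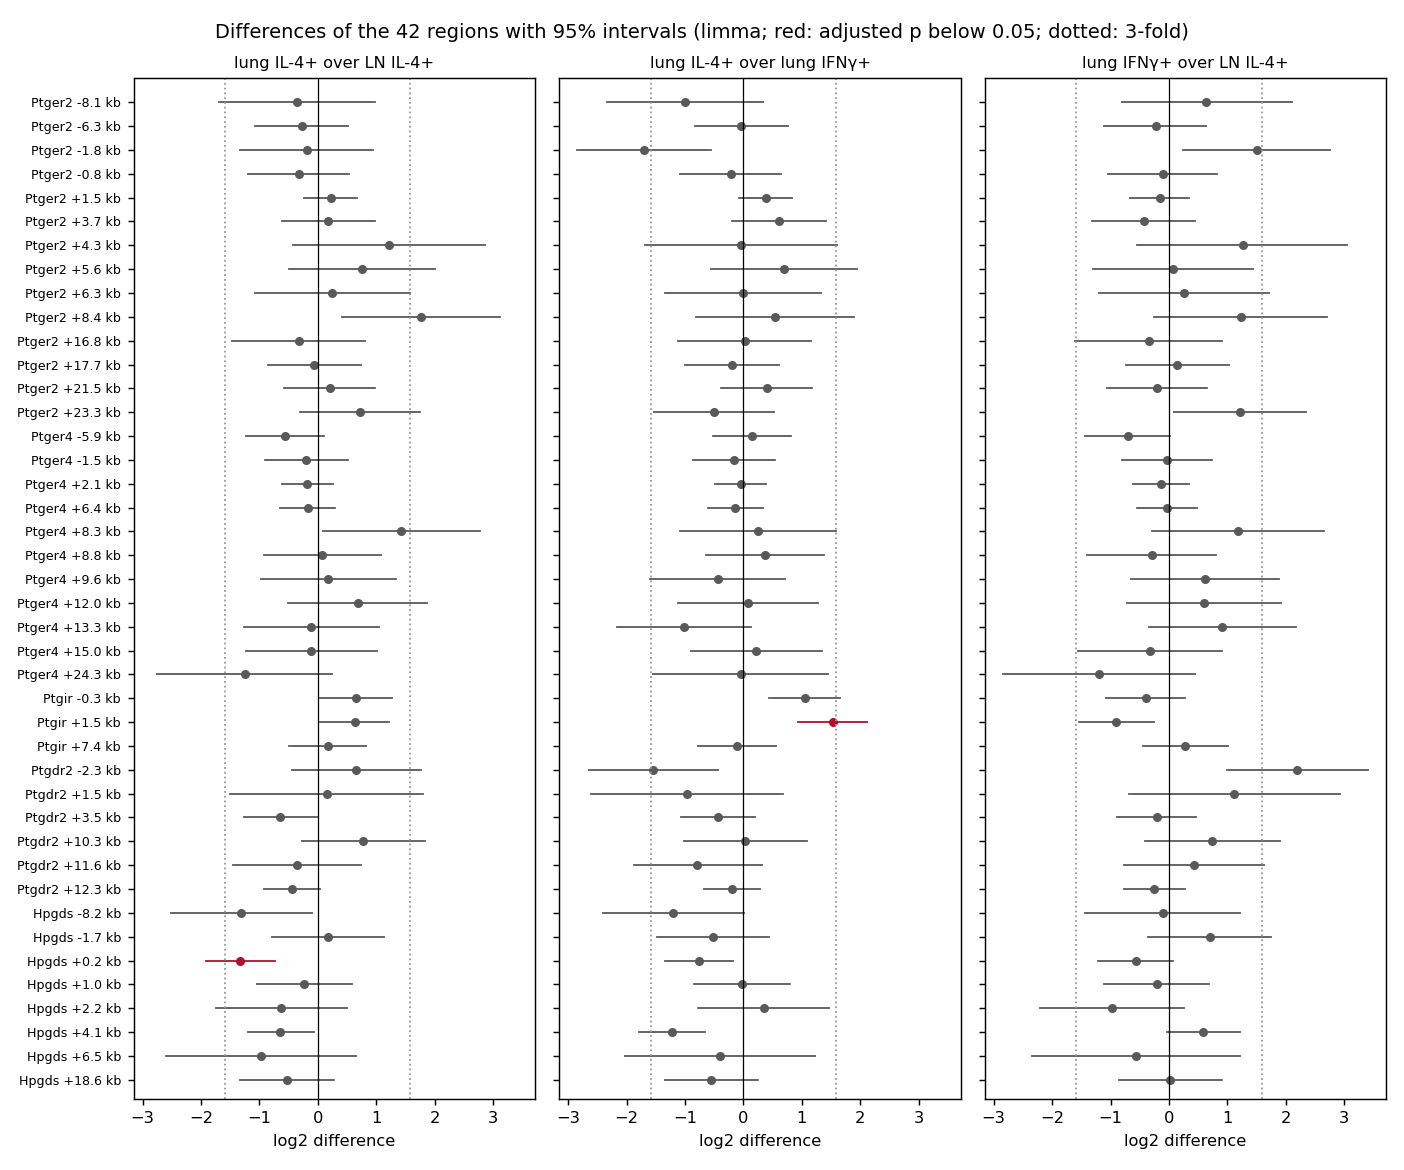
Log2 difference of each of the 42 regions in the 3 contrasts (points) with its 95% interval from limma (lines), ordered by gene and by distance from the gene's start. Dotted lines mark a fold change of 3 and red marks an adjusted p below 0.05, which was reached by 1 region of Hpgds (-1.33) and 1 region of Ptgir (1.53).

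Ptger2, the gene for the EP2 receptor, lies on the plus strand at chr14:44988195-45003820. Its locus sum was 79.9 and 109.1 normalized insertions in the LN IL-4+ libraries, 114.3, 107.8 and 94.1 in lung IL-4+ and 94.1 and 89.8 in lung IFNγ+. The values of the 3 populations overlapped or adjoined, with a log2 difference of 0.17 (95% interval -0.19 to 0.53) for lung IL-4+ over LN IL-4+ and 0.19 (-0.17 to 0.56) for lung IL-4+ over lung IFNγ+, and adjusted p-values of 0.695 and 0.488 (limma). The order of the means, lung IL-4+ at 105.4 ± 10.3, LN IL-4+ at 94.5 ± 20.6 and lung IFNγ+ at 92.0 ± 3.04 (SD), therefore separated no neighbours beyond their spread. Without LN IL-4+ library 1, the first of these differences was -0.05.

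The region at the Ptger2 start was 3374 bp wide, wider than 99.1% of all regions, and held 61.0% of the locus sum on average. Its log2 density was 3.91 and 4.27 in LN IL-4+, 4.26, 4.47 and 4.20 in lung IL-4+ and 3.98 and 3.88 in lung IFNγ+. All lung IL-4+ values lay above both lung IFNγ+ values, by 0.38 on average (SE 0.20, adjusted p = 0.400, limma). The densest region of the locus, with a mean log2 density of 4.24, was centred 17736 bp past the start, downstream of the gene and at the start of the antisense transcript Gm17173. It held 13.3% of the sum and its means were 4.17 in lung IL-4+, 4.37 in lung IFNγ+ and 4.23 in LN IL-4+ cells. Gm17173 or Gm49364 overlapped 12 of the 14 regions of this locus, and ATAC-seq carries no strand, so their accessibility cannot be told apart from that of Ptger2.

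Weaker regions of Ptger2 varied more. A region centred at -1812 bp, that is upstream of the start, had log2 densities of 2.98 and 3.03 in lung IFNγ+, of 2.32, 0.79 and 0.81 in lung IL-4+ and of 1.84 and 1.16 in LN IL-4+. Both lung IFNγ+ libraries lay above the other 5, with a difference of -1.70 (SE 0.52, adjusted p = 0.191) for lung IL-4+ over lung IFNγ+ and of 1.50 (SE 0.57, adjusted p = 0.186) for lung IFNγ+ over LN IL-4+. The first was -2.20 (adjusted p = 0.0464, limma) without lung IL-4+ library 1. It was -1.44 (adjusted p = 0.481) without lung IL-4+ library 2 and -1.45 (adjusted p = 0.419, limma) without library 3. An intron region centred 8368 bp past the start had values of -0.85 and -0.19 in LN IL-4+, of 1.37, 1.00 and 1.38 in lung IL-4+ and of 0.95 and 0.46 in lung IFNγ+. It gave the smallest p of the locus for lung IL-4+ over LN IL-4+ (difference 1.77, SE 0.61, adjusted p = 0.172, limma), on rebuilt counts of 10 to 41 insertions per library. The other regions of Ptger2 had differences that did not pass the adjusted threshold in any contrast.

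Ptger4, the gene for the EP4 receptor, lies on the minus strand at chr15:5206661-5244187 and had the flattest profile. Its locus sum was 196.8 and 193.2 in LN IL-4+, 150.2, 177.5 and 194.3 in lung IL-4+ and 182.6 and 177.3 in lung IFNγ+. The lung IL-4+ libraries reached from below both lung IFNγ+ libraries to above 1 of the 2 LN IL-4+ libraries. The log2 differences were -0.17 (95% interval -0.47 to 0.12) for lung IL-4+ over LN IL-4+, -0.06 (-0.35 to 0.24) for lung IL-4+ over lung IFNγ+ and -0.12 (-0.44 to 0.21) for lung IFNγ+ over LN IL-4+. Both lung IFNγ+ values lay below both LN IL-4+ values, with an adjusted p of 0.675 (limma).

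The region at the Ptger4 start was 5752 bp wide, wider than 99.8% of all regions, and held 67.7% of the locus sum. Its log2 density was 4.61 and 4.45 in LN IL-4+, 4.12, 4.37 and 4.57 in lung IL-4+ and 4.41 and 4.38 in lung IFNγ+. Together with a 2497 bp intron region centred 6417 bp past the start, which held 19.1% of the sum and had means of 3.70 in lung IL-4+, 3.84 in lung IFNγ+ and 3.87 in LN IL-4+ cells, it made the locus mostly a block of open chromatin over the first part of the gene. The smallest p-values came from weaker regions. An intron region at 8288 bp had 0.00 and 1.58 in LN IL-4+, 1.27, 2.57 and 2.83 in lung IL-4+ and 1.64 and 2.31 in lung IFNγ+, with a difference of 1.43 (SE 0.61, adjusted p = 0.274) for lung IL-4+ over LN IL-4+ and overlapping libraries. A region at -5873 bp, upstream, had 3.12 and 3.74 in LN IL-4+ and 2.87 and 2.58 in lung IFNγ+, a difference of -0.70 (SE 0.33, adjusted p = 0.285), with 2.98, 3.06 and 2.56 in lung IL-4+. An intron region at 13316 bp was at 2.51 and 2.33 in lung IFNγ+ and at 1.79, 2.00 and 0.39 in lung IL-4+ (difference -1.02, SE 0.52, adjusted p = 0.378, limma).

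Ptgir, the gene for the prostacyclin receptor, lies on the plus strand at chr7:16906490-16910905 and separated all 3 populations. Its locus sum was 43.8, 42.9 and 48.4 in lung IL-4+, 33.4 and 27.0 in LN IL-4+ and 20.9 and 23.1 in lung IFNγ+. No library of one population lay among those of another, in the order lung IL-4+ (mean 45.0 ± 2.97), LN IL-4+ (30.2 ± 4.54) and lung IFNγ+ (22.0 ± 1.56). The log2 difference was 1.03 (SE 0.16, 95% interval 0.67 to 1.39, adjusted p = 0.0675) for lung IL-4+ over lung IFNγ+, 0.58 (SE 0.16, adjusted p = 0.149) for lung IL-4+ over LN IL-4+ and -0.45 (SE 0.17, adjusted p = 0.252) for lung IFNγ+ over LN IL-4+ (limma). Libraries did not overlap at 53.6%, 25.6% and 51.5% of all loci in these contrasts. The first difference had an adjusted p of 0.0272 without LN IL-4+ library 1 and 0.0246 without LN IL-4+ library 2, and of 0.0673 to 0.801 without any 1 of the lung libraries. With 25 kb on either side in place of 10 kb it was 0.15.

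At Ptgir the populations separated at the regions over the start and inside the gene. The region centred 1541 bp past the start, at chr7:16907204-16908859, is 1656 bp wide with 574 bp of coding sequence and the rest in an intron, and held 43.6% of the locus sum. Its log2 density was 3.57, 3.55 and 3.99 in lung IL-4+, 3.11 and 3.03 in LN IL-4+ and 2.02 and 2.33 in lung IFNγ+. The populations did not overlap, and the region rose 2.88-fold in lung IL-4+ compared with lung IFNγ+ cells (log2 difference 1.53, SE 0.26, adjusted p = 0.0379, limma), just under the fold change of 3 that the study's rule asks for. For lung IL-4+ over LN IL-4+ the difference was 0.63 (SE 0.26, adjusted p = 0.268), and for lung IFNγ+ over LN IL-4+ it was -0.90 (SE 0.29, adjusted p = 0.124). In a sorted population, fewer cells with an open region and a less open region in each cell cannot be told apart.

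The call at this region was lost without lung IL-4+ library 2 (1.60, adjusted p = 0.152) or 3 (1.38, 0.141) and without lung IFNγ+ library 1 (1.37, 0.792) or 2 (1.68, 0.349), where a lone library is assumed to vary like the others. Among the 4 libraries of wide spread, the lung IL-4+ library stood at 3.57 and the lung IFNγ+ libraries at 2.02 and 2.33. With the spread class as a covariate the difference was 1.43 (adjusted p = 0.0186, limma). By the study's rule that fit called 1.16% of all regions in this contrast, beside 0.496% without the covariate. No lung IFNγ+ library was of the narrow class.

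The region over the Ptgir start, centred at -343 bp, followed the same order. Its log2 density was 3.33, 3.52 and 3.48 in lung IL-4+, 3.08 and 2.49 in LN IL-4+ and 2.39 in both lung IFNγ+ libraries. The difference for lung IL-4+ over lung IFNγ+ was 1.05 (SE 0.28, adjusted p = 0.132). The third region, 7392 bp past the start and downstream of the gene, was the densest of the locus with a mean log2 density of 3.28, and there the populations were close, with means of 3.30 in lung IL-4+, 3.13 in LN IL-4+ and 3.41 in lung IFNγ+ cells. Calm3, which encodes a calmodulin, lies in the same window.

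**Figure D3:**
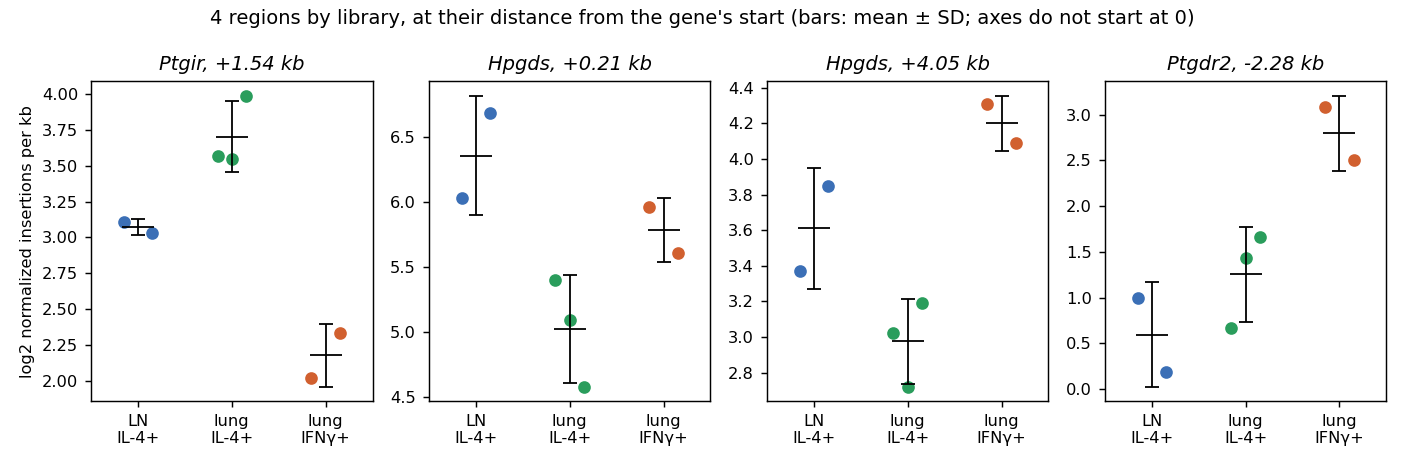
Log2 normalized insertions per kb (y axes, each with its own range) in the 7 libraries (points) with the mean and SD of each population (bars), for 4 regions named by their distance from the gene's start. The Ptgir region was highest in lung IL-4+ cells (3.55 to 3.99), the Hpgds regions were lowest there (4.58 to 5.40 at the start and 2.72 to 3.19 in the intron), and the Ptgdr2 region was highest in lung IFNγ+ cells (2.51 and 3.09).

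Ptgdr2, the gene for CRTH2, lies on the plus strand at chr19:10937160-10942511. The table held no region over its annotated start. Its locus sum was 42.1 and 30.9 in LN IL-4+, 30.9, 25.3 and 27.2 in lung IL-4+ and 36.9 and 34.0 in lung IFNγ+. The lung IL-4+ libraries were the lowest, level with 1 LN IL-4+ library, with a log2 difference of -0.38 (95% interval -0.79 to 0.04, adjusted p = 0.401) against LN IL-4+ and -0.35 (-0.77 to 0.06, adjusted p = 0.356) against lung IFNγ+ cells (limma). On average 63.7% of the sum came from 1 region, 12290 bp past the start, which is at the start of the neighbouring gene Ccdc86, and 2 more regions lay there. With these 3 regions left out, the difference for lung IFNγ+ over LN IL-4+ turned from -0.03 to 0.34 (adjusted p = 0.520) and that for lung IL-4+ over lung IFNγ+ went from -0.35 to -0.72 (adjusted p = 0.292), while that for lung IL-4+ over LN IL-4+ stayed at -0.38 (limma).

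The 3 regions nearer to Ptgdr2 were weaker. For lung IL-4+ over lung IFNγ+ all 3 differences were below 0 and none passed the test (-1.54, -0.97 and -0.44), while their directions were mixed in the contrasts with LN IL-4+ cells. One centred at -2283 bp, upstream of the start, had log2 densities of 3.09 and 2.51 in lung IFNγ+, of 1.00 and 0.19 in LN IL-4+ and of 0.67, 1.43 and 1.66 in lung IL-4+. Both lung IFNγ+ libraries lay above the other 5. The difference was 2.20 (4.60-fold, SE 0.54, adjusted p = 0.0509) for lung IFNγ+ over LN IL-4+ and -1.54 (SE 0.50, adjusted p = 0.211) for lung IL-4+ over lung IFNγ+ (limma). The first passed the threshold under 7 of 17 alternatives, where its adjusted p was between 0.00493 and 0.515, and without lung IL-4+ library 1 it was 0.0313. This is the region whose centre holds the T-box and bZIP motifs printed above, on rebuilt counts of 16 to 171 insertions per library.

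A region of 810 bp that lies wholly in the Ptgdr2 coding exon, 3539 bp past the start, had log2 densities of 3.24 and 2.94 in LN IL-4+, of 2.59, 2.53 and 2.22 in lung IL-4+ and of 2.83 and 2.93 in lung IFNγ+. The lung IL-4+ values were the 3 lowest, by 0.65 against LN IL-4+ (log2 difference -0.65, SE 0.28, adjusted p = 0.288, limma). An intron region at 1510 bp ranged from -0.21 to 2.07 with rebuilt counts from 8 to 97.

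Hpgds, the gene for hematopoietic prostaglandin D synthase, lies on the minus strand at chr6:65117293-65144908 and was least accessible in lung IL-4+ cells. Its locus sum was 50.5, 44.0 and 35.2 in lung IL-4+, 75.0 and 108.0 in LN IL-4+ and 79.0 and 64.1 in lung IFNγ+. All lung IL-4+ libraries lay below the other 4, while LN IL-4+ (mean 91.5 ± 23.4) and lung IFNγ+ (71.5 ± 10.6) overlapped. The log2 difference was -1.07 (SE 0.21, 95% interval -1.57 to -0.58, adjusted p = 0.0701) for lung IL-4+ over LN IL-4+, -0.73 (SE 0.21, adjusted p = 0.255) for lung IL-4+ over lung IFNγ+ and -0.34 (SE 0.23, adjusted p = 0.482) for lung IFNγ+ over LN IL-4+ (limma). The first ranged from -1.34 to -0.81 without single libraries. Its adjusted p was 0.0686, 0.283 and 0.215 without lung IL-4+ library 1, 2 and 3 (limma).

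The region over the Hpgds start, chr6:65144293-65145102, held 65.5% of the locus sum and was the densest of all 42, above 97.6% of the regions in the table. Its log2 density was 6.03 and 6.68 in LN IL-4+, 5.40, 5.09 and 4.58 in lung IL-4+ and 5.96 and 5.61 in lung IFNγ+. It fell 2.51-fold in lung IL-4+ compared with LN IL-4+ cells (log2 difference -1.33, SE 0.26, adjusted p = 0.0264), with all lung IL-4+ libraries below both LN IL-4+ libraries. Against lung IFNγ+ cells the difference was -0.76 (SE 0.26, adjusted p = 0.241), again with no overlap, and for lung IFNγ+ over LN IL-4+ it was -0.57 (SE 0.29, adjusted p = 0.325, limma).

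The spread classes were also read apart. In the narrow class the LN IL-4+ library stood at 6.03 and the lung IL-4+ libraries at 5.09 and 4.58, and in the wide class they stood at 6.68 and 5.40. With the spread class as a covariate the difference was -1.23 (adjusted p = 0.00072, limma). By the study's rule that fit called 3.53% of all regions in this contrast, beside 1.74% without the covariate. The call was lost without LN IL-4+ library 2 (adjusted p = 0.0904) and without lung IL-4+ library 2 (-1.36, 0.116) or 3 (-1.10, 0.0755).

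Among markers of other cells, Pax5, the B cell transcription factor, moved with this result: its locus sum was 50.8 ± 2.39 in LN IL-4+, 23.3 ± 5.42 in lung IL-4+ and 20.5 ± 2.05 in lung IFNγ+ cells (SD). The sort had left out cells with the B cell surface marker B220, and the part of B cells in the Hpgds difference was not tested. For lung IL-4+ over lung IFNγ+, where Hpgds differed by -0.73 (log2), Pax5 differed by 0.16, and the 3 B cell markers with regions summed to 151.1 to 191.5 in LN IL-4+, 135.6 to 148.4 in lung IL-4+ and 126.0 to 134.8 in lung IFNγ+ libraries. Mast cells, the best known source of Hpgds, were checked together with basophils by 5 markers. For lung IL-4+ over lung IFNγ+, Ms4a2 differed by 0.60 (log2), Cpa3 by -0.55 and Cma1 by -1.54, and none passed the adjusted threshold. Cma1 had 1 region, with means of 0.776 to 1.99 insertions. Fcer1a and Mcpt8 had no region, and Ms4a2, Cpa3 and Cma1 together summed to 18.3 to 24.0 insertions in LN IL-4+, 24.8 to 29.8 in lung IL-4+ and 29.3 to 33.2 in lung IFNγ+ libraries.

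An intron region of Hpgds centred 4053 bp past the start held 16.1% of the sum and had another order. Its log2 density was 4.31 and 4.09 in lung IFNγ+, 3.37 and 3.85 in LN IL-4+ and 3.02, 2.72 and 3.19 in lung IL-4+. The populations did not overlap. The difference for lung IL-4+ over lung IFNγ+ was -1.23 (SE 0.26, adjusted p = 0.0674), that for lung IFNγ+ over LN IL-4+ was 0.59 (SE 0.28, adjusted p = 0.295) and that for lung IL-4+ over LN IL-4+ was -0.64 (SE 0.26, adjusted p = 0.247, limma). The first had an adjusted p of 0.0278 without LN IL-4+ library 1 and of 0.0283 without LN IL-4+ library 2, and of 0.0587 to 0.929 without any 1 of the lung libraries.

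Of the 8 Hpgds regions, 6 had all lung IL-4+ libraries below both LN IL-4+ libraries (14.3% of all regions did), and 4 had them below both lung IFNγ+ libraries (21.2%). The regions share libraries and are not independent of each other. Of the 14 Ptger2 regions these counts were 1 and 1, and of the 11 Ptger4 regions 2 and 1.

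**Figure D4:**
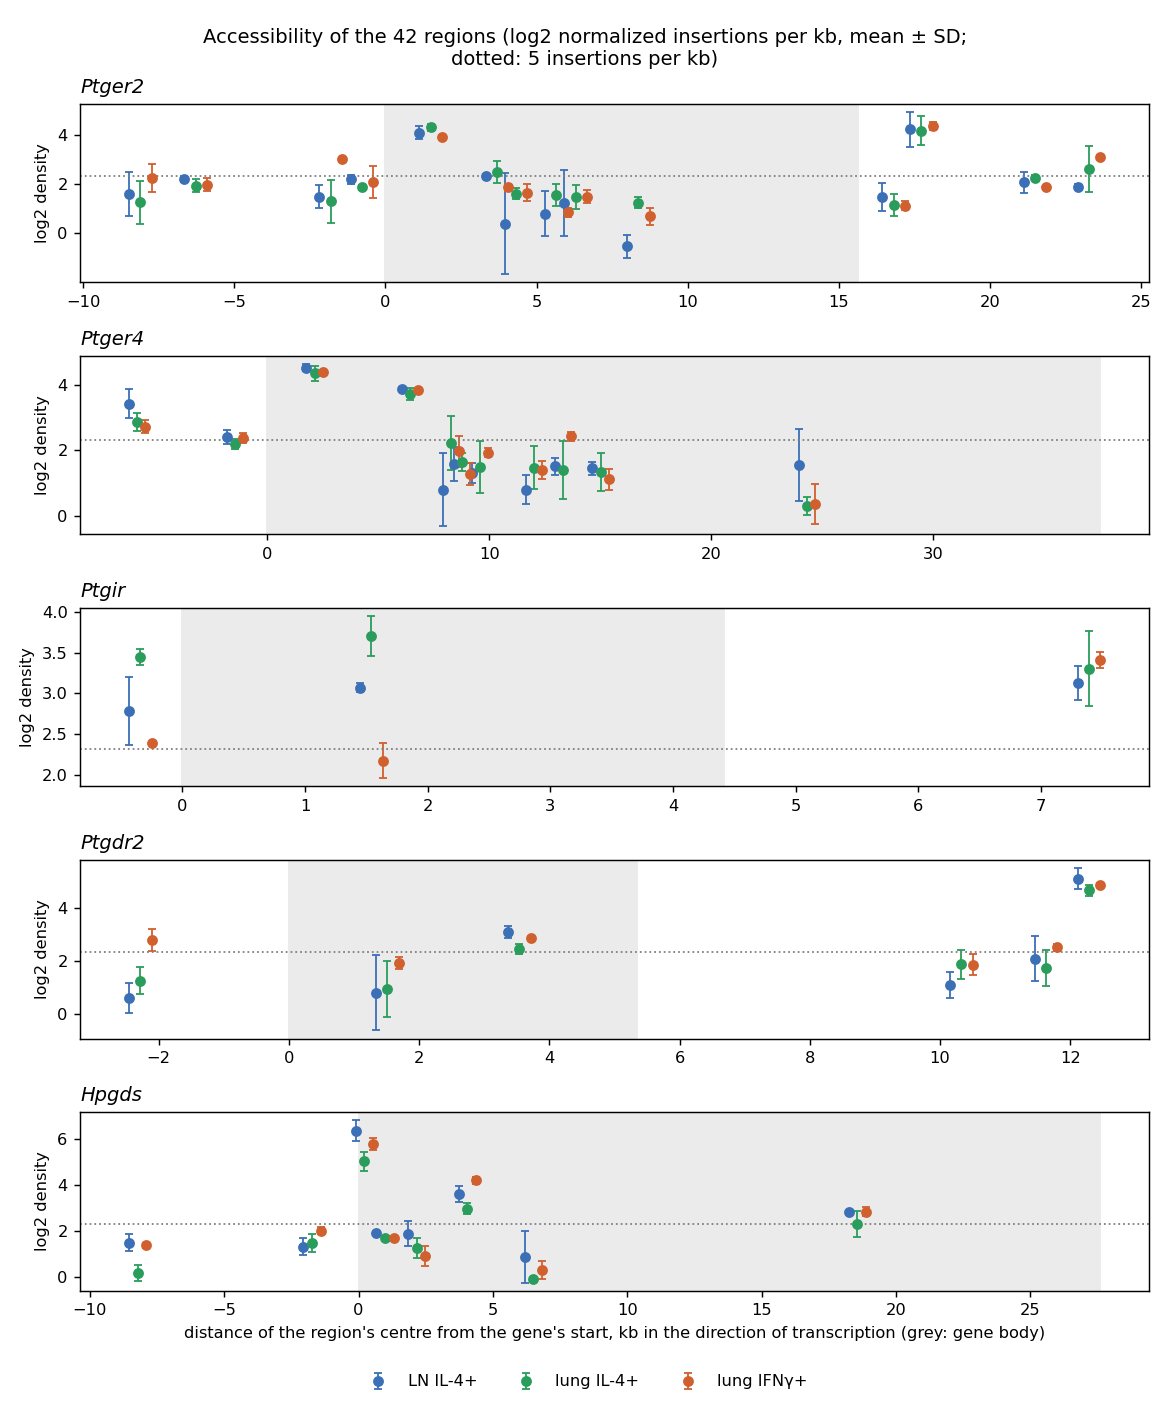
Mean log2 normalized insertions per kb (y axis) with SD (bars) of each region in the 3 populations, against the distance of the region's centre from the gene's start in the direction of transcription (x axis, in kb). The grey area is the gene body and the dotted line marks 5 insertions per kb, which the Ptgir region past the start reached in both IL-4+ populations but not in lung IFNγ+ cells (mean 4.54).

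The study counted a region as accessible at a mean density of at least 5 insertions per kb. By that minimum, 21 of the 42 regions (50.0%) were accessible in at least 1 population, where 58.2% of the whole table was. They numbered 14 in LN IL-4+, 16 in lung IL-4+ and 18 in lung IFNγ+ cells, and 12 were accessible in all 3. The 12 included the start regions of Ptger2, Ptger4, Ptgir and Hpgds. Accessible in lung IFNγ+ cells alone were the upstream regions of Ptger2 (at -1812 bp, mean density 8.01) and Ptgdr2 (at -2283 bp, 7.10), an intron region of Ptger4 (at 13316 bp, 5.36) and a region near the start of Ccdc86 (5.73). In lung IL-4+ cells alone these were an intron region of Ptger2 (at 3692 bp, 5.82) and one of Ptger4 (at 8288 bp, 5.15). The Ptger2 intron region stood at 4.98 in LN IL-4+ cells, just under the minimum. A mean past a fixed minimum is no test of a difference, and none of these regions passed the adjusted threshold.

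Motifs were searched on both strands in the central 300 bases of every region. The GATA motif AGATAA occurred in 6 of the 42 regions (14.3%, against 15.2% of all regions), T-box (AGGTGTGA) in 2 (4.8%, against 1.7%), Runx (AACCACA) in 3 (7.1%, against 11.0%), bZIP (TGANTCA) in 4 (9.5%, against 13.0%) and NFAT (TGGAAAA) in 2 (4.8%, against 7.2%). The cAMP response element (TGACGTCA) occurred in 0 of 42 and in 0.6% of all regions. These are matches of letters and not sites of binding.

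For each locus, the genes with the most similar profile over the 7 libraries were those with the smallest root mean square difference of log2 locus sums centred on their own mean, among 17012 genes. For Ptgir they were Hormad2 (0.0871), Ffar1 (0.0910), a fatty acid receptor, and Tnfsf11 (0.0984), which encodes RANKL, beside a median of 0.517 over all genes. For Hpgds they were Cyp39a1 (0.105), Slc25a27 (0.122) and Kcnj15 (0.131), with a median of 0.522. Cyp39a1 and Slc25a27 are neighbours that share a region, so they count as 1 profile. For Ptger2 they were Tet2 (0.0507), Gabrr1 and Akap7, for Ptger4 Il16 (0.0223), Stard5 and Gm1043, and for Ptgdr2 Shmt1 (0.0643), Lgals2 and 4930556J24Rik. The last 3 loci varied little, and the medians over all genes were 0.301, 0.265 and 0.306.

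The rest of the pathway was read at 36 further genes, of which 33 had a region within 10 kb. The exceptions were Ptgdr, Hpgd and Alox5. Of the 33 loci, 1 was higher and 0 lower for lung IL-4+ over LN IL-4+, 0 were called for lung IL-4+ over lung IFNγ+, and 2 were higher and 0 lower for lung IFNγ+ over LN IL-4+ (limma, adjusted p below 0.05, a threshold passed by 1.08%, 0.0529% and 2.15% of all loci). At an unadjusted p below 0.05, 8, 8 and 9 of the 33 passed in the 3 contrasts, beside 13.9%, 14.9% and 16.3% of all loci. The median log2 difference of the list was -0.04, 0.04 and 0.07, beside -0.09, -0.04 and -0.06 over all loci.

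Ptgs1, the cyclooxygenase COX-1 that makes the common precursor, rose in lung IFNγ+ compared with LN IL-4+ cells, from 3.55 to 12.5 normalized insertions (log2 difference 1.90, adjusted p = 0.0425), and stood at 5.93 in lung IL-4+ cells. Crem, a transcription factor that responds to cAMP, rose from 300.3 in LN IL-4+ to 493.8 in lung IFNγ+ cells (0.72, adjusted p = 0.0410) and was at 477.4 in lung IL-4+ cells (0.68 over LN IL-4+, adjusted p = 0.0549). In the leukotriene branch, Ltb4r1, which encodes the receptor for leukotriene B4, rose from 31.3 in LN IL-4+ to 67.1 in lung IL-4+ cells (1.11, adjusted p = 0.0217) and was at 39.5 in lung IFNγ+ cells (limma). These calls were not firm. The calls at Ptgs1 and Crem were lost without either lung IFNγ+ library, with adjusted p-values of 0.446 and 0.324 at Ptgs1 and 0.358 and 0.463 at Crem, and in a fit of these 2 populations alone, where 0 loci of the whole table were called. They passed in 6 of 16 and 6 of 17 alternatives, and that at Ltb4r1 passed in 8 of 17. With 25 kb on either side the differences at Ptgs1 and Ltb4r1 were 0.60 and 0.46 (adjusted p = 0.269 and 0.177). Ptger1, another receptor for prostaglandin E, was at 14.5 insertions in lung IFNγ+, 30.5 in lung IL-4+ and 46.0 in LN IL-4+ cells and did not pass (adjusted p = 0.170 for lung IFNγ+ over LN IL-4+). The inducible cyclooxygenase Ptgs2 had a mean density of 6.59 insertions per kb in LN IL-4+, 3.99 in lung IL-4+ and 4.00 in lung IFNγ+ cells. Both LN IL-4+ libraries lay above all lung libraries at this locus of 1 region. The adjusted p was 0.459 for lung IL-4+ and 0.468 for lung IFNγ+ over LN IL-4+ (limma).

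**Figure D5:**
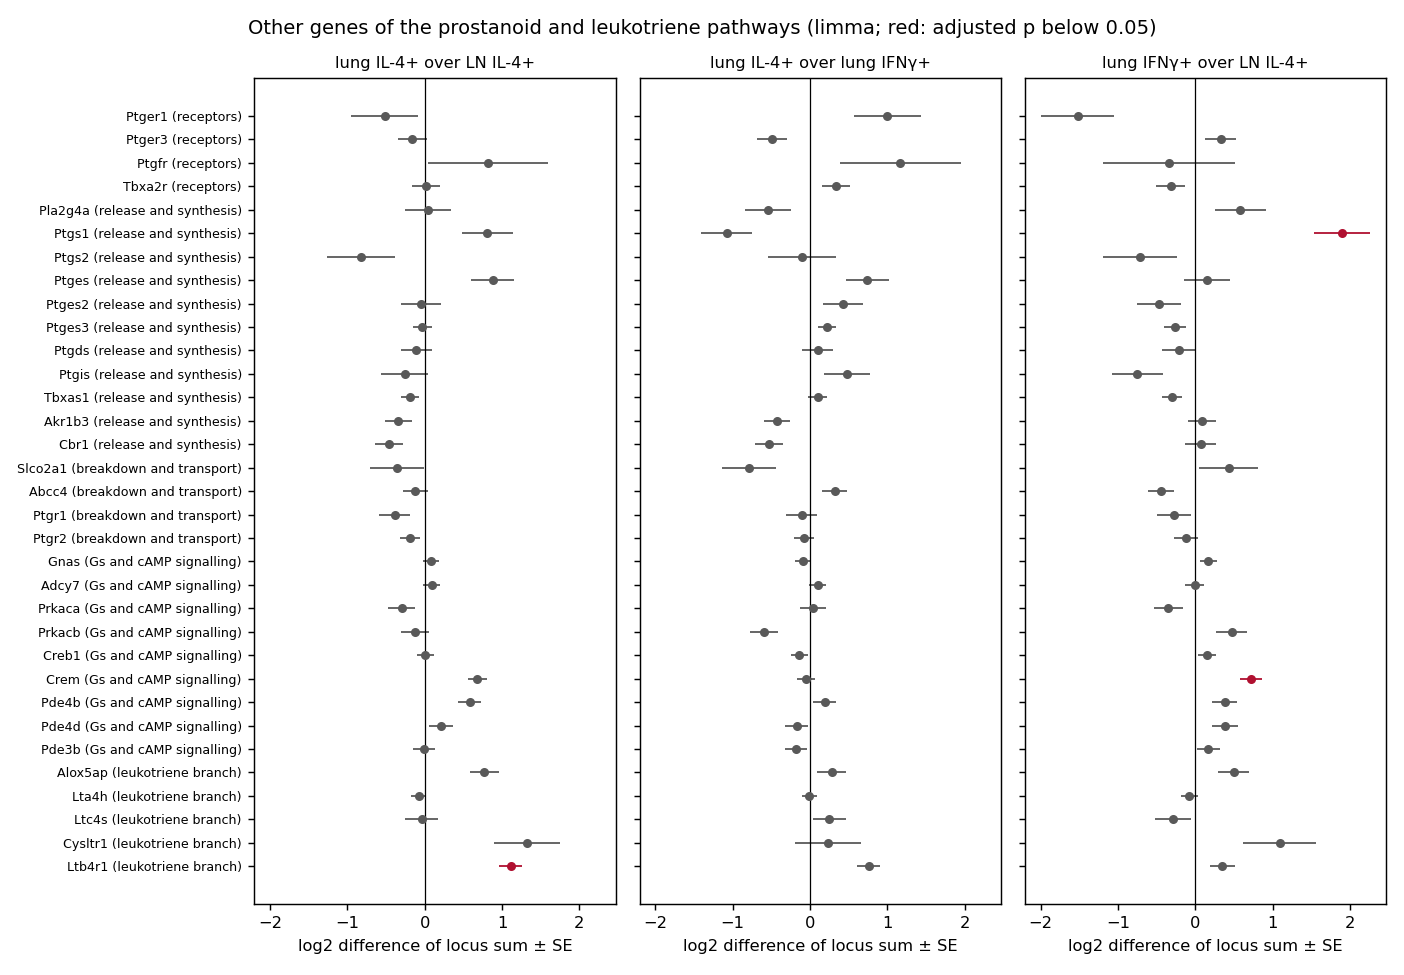
Log2 difference of the locus sum (points) with its standard error (bars) for the 33 other pathway genes that had a region, in the 3 contrasts. Red marks an adjusted p below 0.05, reached by Ltb4r1 for lung IL-4+ over LN IL-4+ and by Ptgs1 and Crem for lung IFNγ+ over LN IL-4+.

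Of 30 markers of T cells and of other cells that the lung or node could hold, 23 had a region, and Fcer1a, Mcpt8, Epx, Prg2, Ms4a1, Lyz2 and Adgre1 had none. The 2 myeloid markers with regions, Csf1r and Itgam, summed to 12.1 to 12.3 insertions in LN IL-4+, 12.3 to 13.6 in lung IL-4+ and 28.8 to 33.8 in lung IFNγ+ libraries. Itgam alone was at 28.1 in lung IFNγ+ cells against 9.62 in LN IL-4+ cells (adjusted p = 0.0200, limma). Csf1r was at 2.59 in LN IL-4+, 1.85 in lung IL-4+ and 3.17 in lung IFNγ+ cells. It did not pass in any contrast (adjusted p from 0.433 to 0.917, limma). Itgam encodes CD11b, and the sort had left out cells with CD11b or CD11c on their surface. The part of myeloid cells in the regions that were highest in lung IFNγ+ cells, those upstream of Ptgdr2 and Ptger2 and the Hpgds intron region, was not tested. The markers of eosinophils, CD8 T cells, epithelium and endothelium had 0 loci called in any contrast.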

How the data were processed

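The ATAC-seq experiment of the study was analysed from 1 deposited table with 7 columns, all mapped to libraries by their labels. Per the paper's methods and the submitters' processing notes, the authors mapped reads to GRCm38 with Bowtie2 2.3.2, called peaks with MACS2 2.1.1, merged them over replicates, counted insertions per region and normalized the counts with limma 3.38.3 (voom) in R 3.5.1. The deposited values are log2 densities per kb, and from their sorted values the columns were also quantile-normalized, which hides differences in total accessibility. Regions with equal counts share a value to 8 decimals within a library, so counts were rebuilt as ranks of distinct values. They are lower bounds and cover counting error only.

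Genes were taken from GENCODE M21 and regions were read as 0-based intervals. The 5 genes and the pathway, marker and motif lists were chosen with earlier results of these data known. All 113820 regions, and locus sums of 17021 protein-coding genes, were fitted with limma 3.58.1 in R 4.3.3 (lmFit with 1 mean per population, eBayes with a variance trend) and adjusted by Benjamini-Hochberg within a contrast, with no pseudocount and no filter. The named regions are those at a gene's start, the densest of each locus and the one with the smallest p in each contrast. The Ptger2, Ptger4 and Ptgdr2 regions accessible in 1 population, the Ptgdr2 intron region at 1510 bp and the markers and pathway genes that did not pass were chosen after their values were seen. On simulated data with 200 of the 113820 regions changed by 2 (log2) at the spread of the data, 15.5%, 20% and 3.5% were recovered with 0 false calls in the contrasts lung IL-4+ over LN IL-4+, lung IL-4+ over lung IFNγ+ and lung IFNγ+ over LN IL-4+. The changed share was below the shares called in the data (1.74%, 0.496% and 3.03%). Fewer changes make the adjustment stricter, so these rates do not measure recovery in the data. For locus sums 83.5%, 76.5% and 73% were recovered with 12, 10 and 4 false calls. Motifs were searched with Python 3.11.15.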

Additional observations from a re-analysis of the deposited data

How the results depend on the processing

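Each fit was repeated with other scalings, weights, filters, thresholds and windows and without each library. The differences of the regions with the smallest p of each gene and contrast kept their sign in all 17 alternatives, while of all 42 regions 26, 26 and 25 did so in the 3 contrasts. The former were picked by their p in the same libraries, which favours a kept sign, so the counts are not comparable. The calls at the Ptgir region past the start and at the Hpgds start remained in 11 and 12 of 17. The call at Ptgir was lost without a variance trend (adjusted p = 0.146) and that at Hpgds likewise (0.152), a setting in which 0 regions of the table passed both thresholds in these contrasts. Of the 42 regions, 1 was called for lung IL-4+ over LN IL-4+ and 1 for lung IL-4+ over lung IFNγ+ with a minimum fold of 2 or none, 1 for lung IL-4+ over lung IFNγ+ with array weights or the spread class (beside 5.76% and 1.16% of all regions), and for lung IFNγ+ over LN IL-4+ 1 with median centring, quantile normalization, array weights or log2(density + 1), where 2.64% to 3.95% of all regions were called, and 2 with the spread class or voom on rebuilt counts, where 4.62% and 5.18% were. Of the 5 loci, the spread class gave 2, 1 and 1 calls in the 3 contrasts (beside 15.3%, 2.85% and 11.8% of all loci), and for lung IL-4+ over lung IFNγ+ array weights gave 4, where 70.1% of all loci were called, and fits of only the 2 populations gave 1 (0.946%). With lung IL-4+ library 1 left out, the region calls were 0, 2 and 1 in the 3 contrasts, beside 1.82%, 1.03% and 3.6% of all regions. With library 2 or 3 left out they were 0, beside at most 1.09%, 0.0395% and 2.88% of all regions. In these fits 0 of the 5 loci were called, beside at most 0.893%, 0% and 2.51% of all loci. Leaving out any other library left 1 library in its population, and no counts are given for those fits. Accessible regions numbered 35 at a minimum of 3 and 11 at a minimum of 10, and 20 to 23 without single libraries. Why these counts moved was not tested.

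Directions turned at Ptger2, Ptger4 and Ptgdr2 locus sums among the values given here. These did not pass the test as reported, but with array weights Ptger2 and Ptgdr2 did for lung IL-4+ over lung IFNγ+ (adjusted p = 0.0031 and 6.36e-05). For Ptger2, lung IL-4+ over LN IL-4+ ranged from -0.05 to 0.39 without single libraries, lung IL-4+ over lung IFNγ+ was -0.07 as a mean of log2 densities, and lung IFNγ+ over LN IL-4+ was 0.03 with median centring, 0.02 with quantile normalization, 0.34 as a mean of log2 densities and -0.25 to 0.20 without single libraries. For Ptger4, lung IL-4+ over lung IFNγ+ ranged from -0.14 to 0.05 without single libraries, and lung IFNγ+ over LN IL-4+ was 0.05 as a mean of log2 densities. For Ptgdr2, lung IL-4+ over LN IL-4+ was 0.02 as a mean of log2 densities, and lung IFNγ+ over LN IL-4+ was 0.02 with median centring, 0.04 with quantile normalization, 0.00 with the spread class, 0.03 with 25 kb on either side, 0.67 as a mean of log2 densities, 0.34 without the regions at Ccdc86 (chosen after seeing the data) and -0.25 to 0.20 without single libraries.

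Same-numbered libraries were not treated as pairs, since their deviations correlated between -0.542 and 0.057. Whether they shared animals is not given in the sources used here, and the pairs with the correlations -0.542 and -0.297 set a narrow against a wide library. With the replicate number as a block, 0 of the 42 regions and 0 of the 5 loci were called in each contrast, the Ptgir region past the start differed by 1.38 (adjusted p = 0.422) for lung IL-4+ over lung IFNγ+ and the Hpgds start by -1.10 (adjusted p = 0.209) for lung IL-4+ over LN IL-4+, while 0 regions of the whole table were called in these contrasts. With 2 or 3 libraries a population, regions that did not pass cannot be called alike.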
